A study of Mus musculus with 15 samples.

Results

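Of 7 genes grouped under autophagy and restraint of the growth kinase mTORC1, 6 had a p53 chromatin immunoprecipitation sequencing (ChIP-seq) region in reach. A region in reach lies inside the gene or no more than 20 kb away. The genes were Sesn1, Sesn2, Ddit4, Ddit4l, Ulk1, Lpin1 and Prkab1, and their places came from RefSeq. Regions came from 3 deposited lists, 1 each for liver, spleen and thymus. Around the 7 genes lay 11 of the 4137 distinct regions that the lists hold together.

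In ChIP-seq, DNA bound by a protein is recovered with an antibody and sequenced. The protein here is p53, the stress-activated transcription factor encoded by Trp53. The 15 libraries all came from wild-type mice, and the age of the animals is not given in the labels. Each organ had 2 untreated libraries, 2 of mice that had received an X-ray dose of 2 Gy 3 h earlier, and 1 input library of chromatin that skipped the antibody step. The labels name the same list for all 5 libraries of an organ, and the list names mention irradiation and IgG. A single list per organ leaves neither replicates nor values per library, so no difference below carries a test, and the effect of radiation could not be examined. Read depth is unknown.

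mTORC1 is a protein kinase complex at the lysosome that drives protein and lipid synthesis when amino acids and growth factors are present, and that holds autophagy, the breakdown of cell contents in the lysosome, in check. Sestrins (Sesn1, Sesn2) signal amino acid shortage to it through the GATOR complexes, and Ddit4 (also called REDD1) and its relative Ddit4l act through the TSC complex, which switches off the activator Rheb. Prkab1 encodes a beta subunit of the energy sensor AMPK, Ulk1 the kinase that starts autophagy, and Lpin1 (lipin 1) a phosphatidate phosphatase and co-regulator of lipid genes that mTORC1 phosphorylates. Several of these genes are known p53 targets, through which p53 slows growth during stress.

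The Ddit4 promoter is shown because a region found in all 3 lists covers it entirely, and the stretch beside Sesn1 because it carries the region held by the liver list alone. Both are 5′ to 3′ on the minus strand (RefSeq, GRCm38.p6, the assembly that mm10 names). Ddit4 is the 250 bases before the gene start, chr10:59951771-59952020. Capitals mark the only match to a single decamer of the p53 response element, with up to 1 mismatch by the search described below. The stretch beside Sesn1 is the 182 bases of its region that lie before the start of the neighbouring gene Cep57l1, chr10:41809869-41810050. Capitals there mark both copies of the longest repeated run, GCGCATGCGC, which is its own reverse complement and has the form of the site known for the factor NRF1. The same search found no decamer of the p53 element with up to 1 mismatch in that stretch.

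Ddit4: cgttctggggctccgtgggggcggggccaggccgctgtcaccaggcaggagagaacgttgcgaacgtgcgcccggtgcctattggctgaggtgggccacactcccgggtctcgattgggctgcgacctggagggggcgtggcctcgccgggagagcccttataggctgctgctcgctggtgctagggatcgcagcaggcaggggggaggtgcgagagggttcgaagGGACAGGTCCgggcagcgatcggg
Cep57l1 side of the Sesn1 region: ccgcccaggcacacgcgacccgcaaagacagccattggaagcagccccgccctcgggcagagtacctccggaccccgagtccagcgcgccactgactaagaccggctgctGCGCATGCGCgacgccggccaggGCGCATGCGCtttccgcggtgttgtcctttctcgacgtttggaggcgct

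The p53 decamer was searched by its consensus on both strands at once, since it reads as its own reverse complement. The C and the G of the consensus had to match, so a mismatch could fall only at the other positions. Among 32851 RefSeq promoter windows, each of 250 bases before and 50 after a gene start, 8.36% held an exact match and 50.9% a match with up to 1 mismatch. A match such as that of Ddit4 is therefore common. A full p53 response element pairs such decamers. A close pair of matches, each with up to 1 mismatch, occurred in 2.71% of all windows. No window of the 7 genes or of Cep57l1 held such a pair. Every one of the 7 genes had a window in the RefSeq table. The window of Ddit4l held an exact match, printed here with 10 bases on either side (chr3:137623572-137623601, plus strand).

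Ddit4l: caactcccagGGGCTTGCCTgggcccctgc

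The promoter window that holds this match ended 279 bp before the Ddit4l region described below. The second promoter of Sesn1, at the start 41887439, also held an exact match, AAGCTTGTTT, and the nearest region lay 52561 bp from that start. A match is a description of letters and not of binding.

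The genes with a region numbered 6 of 7 in liver, 5 in spleen and 4 in thymus. Sesn1, Sesn2, Ddit4, Ddit4l, Ulk1 and Lpin1 made up the liver count. Spleen lacked Sesn1, and thymus lacked Sesn1 and Ddit4l. Among all 21887 protein-coding genes, the share in reach of a region was 22.3% for the liver list, 12.8% for spleen and 11.6% for thymus. Sesn2, Ddit4, Ulk1 and Lpin1 had a region in every list, against 9.18% of coding genes. The same 4 genes each had 2 or more distinct regions in reach, against 4.44%. Sesn1 was the 1 gene with regions in the liver list and in neither other list, a pattern of 8.28% of coding genes. The median length of the 7 genes was 17653 bp, beside 17169 bp for all coding genes. The genes were picked as known or likely p53 targets with earlier results of these lists in view, so the counts are no independent sign of enrichment.

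**Figure D1:**
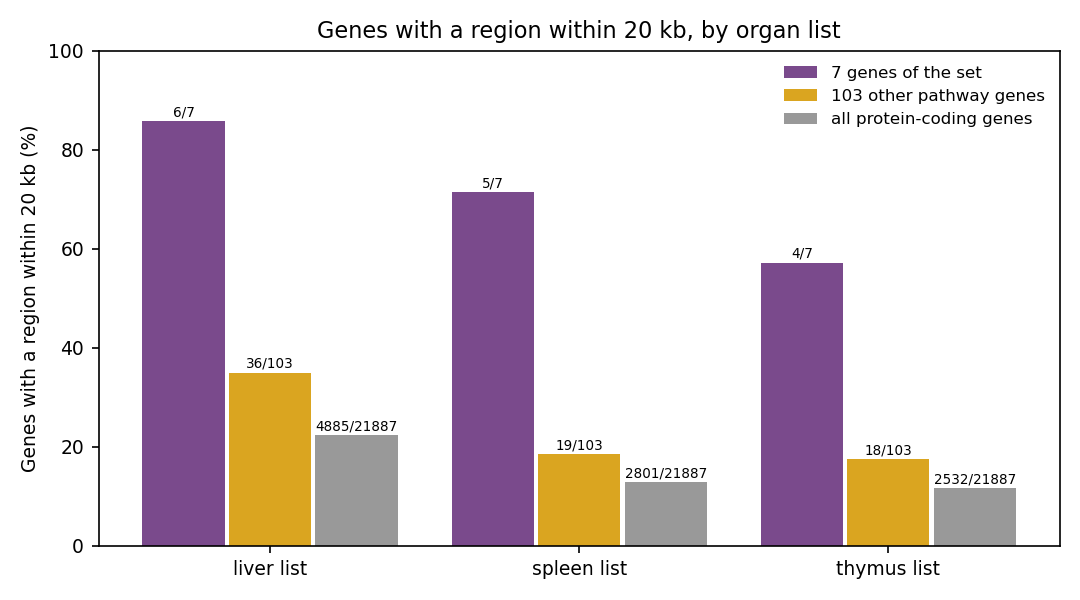
Bars give the percentage of genes with a region inside them or within 20 kb (y axis) for each organ list (x axis), with counts above. The 7 genes of the set are purple, 103 other genes of the pathway yellow and all protein-coding genes grey, and the purple bar was the tallest in each list, at 6, 5 and 4 of 7 genes.

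Regions differ in their score, the authors' own value, on a scale that no source states. It is used below only as a percentile, the rank of a region within its own list of 3872 (liver), 2604 (spleen) or 2405 (thymus) regions. Because the lists differ in length and in the regions they hold, a percentile that differs between lists shows a different rank and not a change in binding. Of the 11 regions, 6 were in all 3 lists (46.7% of all distinct regions were), 3 in the liver and spleen lists alone (10.6%) and 2 in the liver list alone (30.3%). All 11 were in the liver list, as were 93.6% of all distinct regions.

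**Figure D2:**
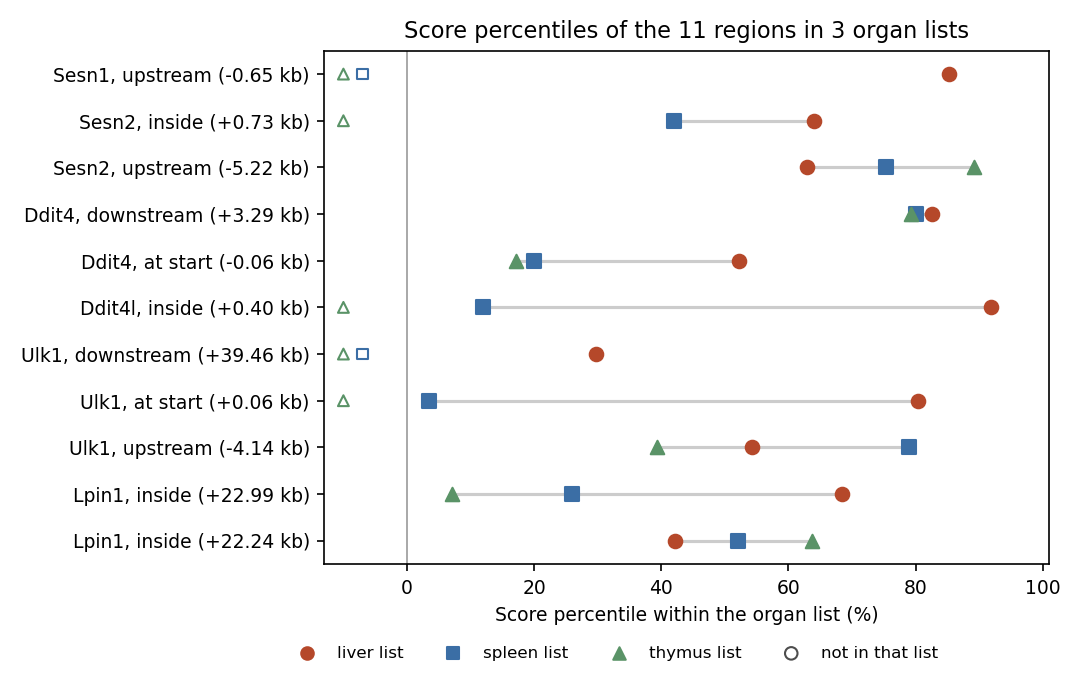
Each row is 1 of the 11 regions, named by its gene and the distance of its midpoint from the nearest annotated start of that gene in the direction of transcription. Filled symbols give the score percentile within each organ list (x axis), open symbols left of 0 mark lists that lack the region, and grey lines span the values. The region at the Ulk1 start runs from 3.42 in spleen to 80.4 in liver, while that downstream of Ddit4 lies between 79.3 and 82.6 in all lists.

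Sesn1 encodes sestrin 1 and lies on the plus strand of chromosome 10 (41810574 to 41908436). Its only region spanned 41809801 to 41810050, 250 bp wide, and ended 523 bp before the gene. It was held by the liver list alone, at the 85.3 percentile, the second highest of the 11 regions in liver. Spleen and thymus had no region within 20 kb of Sesn1.

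The region also overlaps the neighbour of Sesn1. Cep57l1, a relative of the centrosomal protein gene Cep57, runs the opposite way on the minus strand (41718840 to 41809868), and 705 bp separate both genes. The region ran from 182 bp before to 67 bp after the start of Cep57l1 and shared 68 bp with it. Its midpoint was 57.5 bp from that start and 648.5 bp from the start of Sesn1. The data do not assign the region to either gene. The RefSeq promoter window of Sesn1 lay 273 bp away and shared no base with it. The nearest region beyond the 20 kb limit was 31564 bp past the other end of Sesn1, inside Armc2 (41940001 to 41940350). It was in all 3 lists, with liver, spleen and thymus percentiles of 42.1, 87.4 and 65.9.

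Among regions of the liver list alone, the Sesn1 region ranked high. Of those 1255 regions, 92.4% had a lower score and 93 a higher one, and their median liver percentile was 48.4. Liver-alone regions lay mostly at gene starts. Of the 1220 on chromosomes with promoter windows, 75.7% had their midpoint within 1 kb of an annotated start, against 13.0% of regions in all 3 lists. The Sesn1 region is thus placed as most regions of its class are.

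The other liver-alone region lay on the side of Ulk1. It was 50 bp wide (chromosome 5, 110770601 to 110770650) and 13838 bp past the 3′ end of Ulk1, at a liver percentile of 29.8. It also lay inside Ep400, which encodes a chromatin remodelling ATPase, between 67 and 116 bp after the Ep400 start on the minus strand, and 3016 bp from Pus1. Both liver-alone regions therefore sat at the start of another coding gene, and neither shared a base with the gene of the set. Of the liver-alone regions, 31.5% had a lower score than this one.

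**Figure D3:**
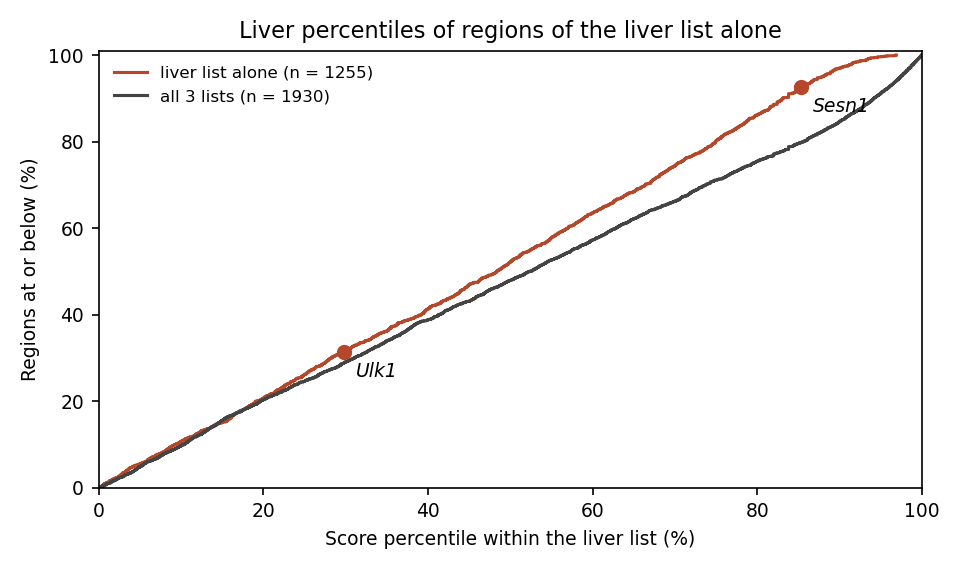
Lines give the cumulative percentage of regions (y axis) at or below each score percentile of the liver list (x axis), red for the 1255 regions of the liver list alone and dark grey for the 1930 in all 3 lists. Red points mark the liver-alone regions near Sesn1 (85.3) and Ulk1 (29.8).

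Sesn2, which encodes the leucine-binding sestrin 2, lies on the minus strand of chromosome 4 (132492804 to 132510456). Unlike Sesn1 it had regions in every list. The region inside the gene, 606 to 855 bp after its start (132509601 to 132509850), ranked at 64.0 in liver and 42.1 in spleen and was not in the thymus list. The region upstream, 5045 to 5394 bp before the start (132515501 to 132515850), was in all 3 lists, with percentiles of 63.0, 75.3 and 89.1 in the order liver, spleen and thymus, which is used from here on. In liver the pair stood 1 place apart in the order of the 11 regions. In thymus the upstream region was the highest of 6. No other coding gene lay within 20 kb of the inner region, and Atpif1 and Dnajc8 lay 14704 and 19708 bp from the upstream one. Sesn3, the remaining sestrin gene, had no region within 20 kb; its nearest was 275350 bp away.

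Ddit4 (chromosome 10, 59949675 to 59951770, minus strand) had both of its regions in all 3 lists. The promoter region printed above in part spanned 59951601 to 59952050, from 280 bp before to 169 bp after the start, and was the widest of the 11 at 450 bp. Its percentiles were 52.2, 19.9 and 17.1. The region downstream (59948301 to 59948650) lay 1024 bp past the 3′ end of the gene and had percentiles of 82.6, 80.0 and 79.3. The downstream region thus ranked above the promoter region in each list. No other coding gene lay within 20 kb of either.

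Ddit4l (chromosome 3, 137623672 to 137628332, plus strand) had 1 region inside the gene, 329 to 478 bp after its start (137624001 to 137624150). It ranked at 91.9 in liver, the highest of the 11, and at 12.0 in spleen, and the thymus list did not hold it. The nearest thymus region was 832721 bp away. The liver percentile exceeded the spleen percentile by 79.9 points, the widest such gap of the 9 regions that both lists hold.

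Ulk1 (chromosome 5, 110784489 to 110810120, minus strand) had 3 regions in reach, the largest number of the 7 genes. The region at its start was 50 bp wide, 31 to 80 bp into the transcript (110810001 to 110810050), and shared 19 bp with the promoter window. It ranked at 80.4 in liver and at 3.42 in spleen, near the lower limit of that list, and was not in the thymus list. The upstream region, 4020 to 4269 bp before the start (110814101 to 110814350), was in all 3 lists at 54.2, 79.0 and 39.3. The order of these regions thus turned, with the start region ahead in liver and the upstream region ahead in spleen. The third region was the liver-alone one at Ep400. Hscb lay 14719 bp from the upstream region and 19019 bp from that at the start.

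Lpin1 (chromosome 12, 16535669 to 16653903, minus strand) held a pair of regions inside the gene with 550 bp between them, both in all 3 lists. They lay about 22 to 23 kb after the start at 16610966, the only start of Lpin1 in the promoter table, although the annotated gene extends past it. The region nearer the start (16588601 to 16588850) had percentiles of 42.1, 52.1 and 63.7. Its neighbour (16587901 to 16588050) had 68.4, 26.0 and 7.07. Neighbouring regions of 1 gene thus stood in opposite order, with the second ahead in liver and the first ahead in spleen and thymus. The table used here gives no exons, so exon and intron were not told apart.

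Prkab1 (chromosome 5, 116013586 to 116024503, minus strand) had no region in reach in any list. The nearest in liver and spleen was 381435 bp away, inside Rab35, and the nearest in thymus 686435 bp away. Just outside the 20 kb limit of the other genes, the closest region was 22430 bp from Ddit4 (59974201 to 59974350; percentiles 6.84, 19.5 and 9.63). The farthest region inside the limit was the liver-alone one, 13838 bp from Ulk1.

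**Figure D4:**
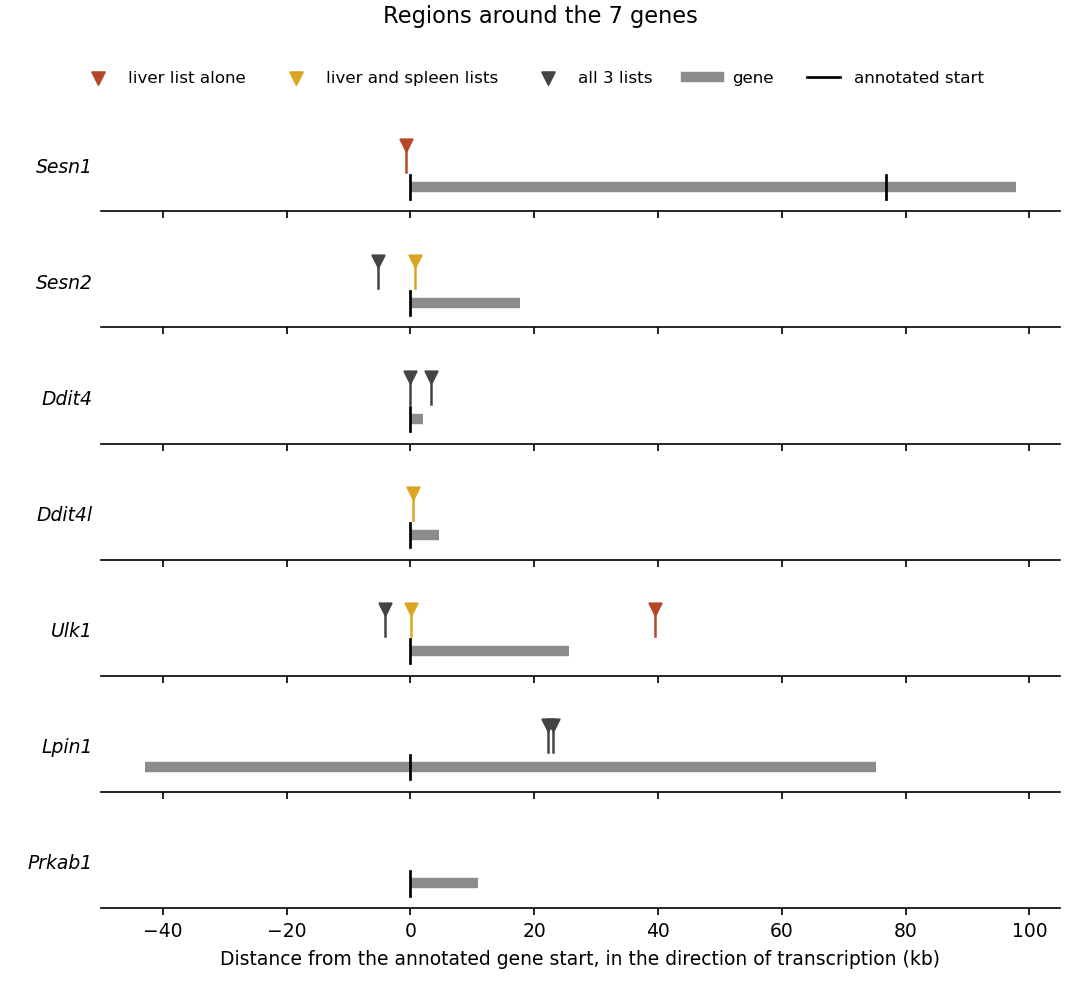
Each row is 1 gene drawn to scale as a grey bar against the distance from its annotated start in the direction of transcription (x axis, kb), with black ticks at annotated starts. Triangles mark region midpoints, red for the liver list alone, yellow for the liver and spleen lists and dark grey for all 3. Dark triangles stand away from the starts, except that at the Ddit4 start, and Prkab1 has none.

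Place and list went together across the 11 regions. A midpoint within 1 kb of an annotated gene start was found for 6: those of Sesn1 and Ddit4l, the inner region of Sesn2, the promoter region of Ddit4, and the Ulk1 regions at its own start and at Ep400. Of these, 1 was in all 3 lists, 3 in liver and spleen and 2 in liver alone. The 5 regions farther from any start in the promoter windows were all in all 3 lists. Among them, the upstream Sesn2 region had its midpoint within 1 kb of an end of an annotated gene that is not protein-coding. Over the distinct regions, 15.3% of 1593 near a start and 67.0% of 2426 farther away were in all 3 lists. The counts of the set follow the same direction as those of the whole lists, and nothing particular to these genes is shown by them.

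Ranks in spleen tended to be lower near a start, although the ranges overlapped. The 4 regions near a start that spleen holds ranked between 3.42 and 42.1 there, with a median of 15.9, and the 5 others between 26.0 and 80.0, with a median of 75.3. In liver the ranges overlapped widely, at 29.8 to 91.9 (median 72.2) for 6 regions near a start and 42.1 to 82.6 (median 63.0) for the others. In thymus the 1 region near a start ranked at 17.1 and the 5 others between 7.07 and 89.1, with a median of 63.7. The medians of all spleen regions were 16.1 near a start and 56.9 farther away. Those of all liver regions were 52.7 and 47.6, and those of all thymus regions 17.5 and 56.2. When each list was shortened to its upper 50% of scores, 2 of the 11 regions were left in all 3 lists, those upstream of Sesn2 and downstream of Ddit4. Held by liver alone in that setting were 6, the Sesn1 region among them, and 1 region, that of Lpin1 nearer the start, was in spleen and thymus without liver. The shares of all distinct regions at this cut were not counted, so these counts show nothing particular to the genes.

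To put the lists on a common base, ranks were also taken among the 1930 regions that all 3 hold. The region downstream of Ddit4 then stood at 77.5, 74.9 and 75.6, a narrow range. The Ddit4 promoter region stood at 49.9, 11.5 and 12.0. The upstream region of Sesn2 gave 60.2, 69.2 and 86.9, and that of Ulk1 gave 51.9, 73.5 and 32.5. The Lpin1 regions gave 40.9, 43.0 and 58.1 for the one nearer the start, and 65.1, 16.4 and 4.51 for the other. The order of the organs was kept for Sesn2, Ulk1 and Lpin1. For the promoter region of Ddit4 spleen and thymus changed places by a small margin, as they did for the downstream region.

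Regions elsewhere with the most similar percentiles were found by the smallest summed difference over the 3 lists. For the upstream Sesn2 region the nearest lay 9116 bp from Ppp1cc, which encodes a protein phosphatase catalytic subunit, and 7320 bp from Ccdc63, with 62.5, 74.9 and 89.5 and a summed difference of 1.24 points. The next lay inside Iqch (2.61 points). For the downstream Ddit4 region they lay 12303 bp from Rps6ka1, a ribosomal S6 kinase gene (4.21 points), and inside Taok3 (4.52). For the Ddit4 promoter region they lay 11800 bp from Cul2 (6.19) and near Cbr4 and Palld (8.56). For the upstream Ulk1 region they lay 18280 bp from Bhlhe41 (10.6) and inside Kif28 (12.8). For the Lpin1 regions they lay near Rbbp7 (6.41) and inside Sntb1 (8.33) for the one nearer the start, and near Hmgn1 (10.8) and inside Esrrg (12.8) for the other. Among liver-alone regions, those at Iba57, at Zfp213 and one sharing bases with both Brd2 and H2-DMa stood closest to the Sesn1 region, at 85.3, 85.2 and 85.1 in liver.

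Other genes of the pathway were taken from a list of 104, of which 103 matched RefSeq; Samtor did not. The liver list reached 36 of the 103 (35.0%), the spleen list 19 (18.4%) and the thymus list 18 (17.5%), beside 22.3%, 12.8% and 11.6% of coding genes. With the lists taken at equal length, by score, the counts were 23, 18 and 18, beside 15.3%, 11.3% and 11.6% of coding genes. All 3 lists reached 13 genes (12.6%), beside 9.18% of coding genes. The liver list by itself reached 16 (15.5%), beside 8.28% of coding genes. A further 4 were reached by liver with spleen, 3 by liver with thymus, and 2, Uvrag and Calcoco1, by both lymphoid lists without liver. Of the 20 regions that the liver list alone holds near these genes, 16 could be placed against a start of their own gene, and 13 of those had a midpoint within 1 kb of it. Of 13 regions in all 3 lists, 2 lay so near a start of their own gene, those of Nprl3 and Wipi2. Over the whole lists, 75.7% of placed liver-alone regions and 13.0% of those in all 3 lists lay that near to any annotated start. The counts near pathway genes follow the same direction and show nothing particular to them.

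Tsc2, the GTPase-activating subunit of the TSC complex on which Ddit4 acts, held a region inside the gene in all 3 lists. Its percentiles were 43.3, 95.4 and 63.3, so that it ranked highest in spleen. The other 4 genes of the TSC and Rheb group, Tsc1, Tbc1d7, Rheb and Rhebl1, had none in reach.

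GATOR1, the complex through which sestrin signals reach mTORC1, had regions at all of its 3 genes. The region at the Nprl3 start had percentiles of 84.9, 13.0 and 46.8. Nprl2 had one at its start in liver alone (83.8), which also lay 7 bp from Cyb561d2, and another 8694 bp away, sharing bases with Rassf1, in liver and thymus (55.8 and 10.4). Depdc5 held one inside the gene at 1.28 in liver and 92.4 in spleen, and had another 9295 bp away, sharing bases with Prr14l, at 32.9 and 25.2. Of the GATOR2 genes, Seh1l had regions in liver alone (highest percentile 44.7) and Wdr59 one 17130 bp away in all lists, at most at 28.6. Of the 14 genes of amino acid sensing, 5 had a region of any list in reach, as did 23.0% of coding genes.

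Of the 10 genes of AMPK and its kinases apart from Prkab1, 5 had a liver region, 1 a spleen region and 0 a thymus region. The shares of coding genes (22.3%, 12.8% and 11.6%) are also highest for liver, the longest list, and counts this small are not read as a difference between organs. Prkab2, which encodes the other beta subunit, had one 60 bp outside the gene in liver alone at 31.7. Prkaa1, the catalytic alpha 1 subunit, had one at its start in liver alone at 31.6, and Cab39 and Strada, partners of the kinase Stk11, had theirs at 36.3 and 31.3 in liver. The region in reach of Stk11 itself (74.7) lay inside Atp5d, 10621 bp away. The gene that this region belongs to is therefore not settled.

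Relatives of Ulk1 and Lpin1 had fewer regions in reach than these genes. Ulk2 had a region at its start in liver alone at 75.9, close to the 80.4 of the Ulk1 start region, which spleen also holds. Lpin2 and Lpin3 had no region within 20 kb, with the nearest 74282 and 81700 bp away. Of the 20 genes of phagophore growth and conjugation, which act downstream of Ulk1, 10 were in reach of a liver region and 5 each of a spleen and a thymus region, beside the same 22.3%, 12.8% and 11.6% of coding genes. Atg7, the activating enzyme of the conjugation system, held a region at 95.2 in liver and 70.6 in spleen, and another at 32.1, 76.7 and 83.0. Atg4a, a protease that processes the conjugated proteins, held one at 94.1, 81.1 and 60.4. Wipi2, a phosphoinositide-binding protein of the growing phagophore, had one at its start at 89.7, 17.6 and 14.3, the same order of organs as for the Ddit4 promoter region.

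Distance and neighbours differed among the rest. The region 13757 bp from Nrbf2, a subunit of the autophagy lipid kinase complex, had percentiles of 94.9, 40.8 and 30.4. The region in reach of Rragc, a Rag GTPase gene, lay inside Mycbp, 12282 bp away (83.0, liver alone). That at the start of Rps6kb1, the S6 kinase that mTORC1 activates, also shared bases with Tubd1 (82.0, liver alone), and a second region inside Rps6kb1 was in all 3 lists at 22.5, 63.7 and 37.4. The remaining pathway genes with a region in reach were Mlst8, Rragd, Lamtor3, Fnip1, Akt1, Pik3ca, Rb1cc1, Pik3r4, Rubcn, Atg2b, Atg3, Atg4d, Atg5, Atg10, Atg12, Map1lc3b, Tax1bp1 and Vmp1. Liver regions were in reach of 1 of 5 mTORC1 complex genes, 4 of 12 Rag and Ragulator genes and 1 of 9 mTORC1 output genes. For lipid signalling, autophagy initiation and autophagy receptors and modulators the counts were 2 of 5, 5 of 12 and 2 of 11. The liver share of coding genes was 22.3%.

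**Figure D5:**
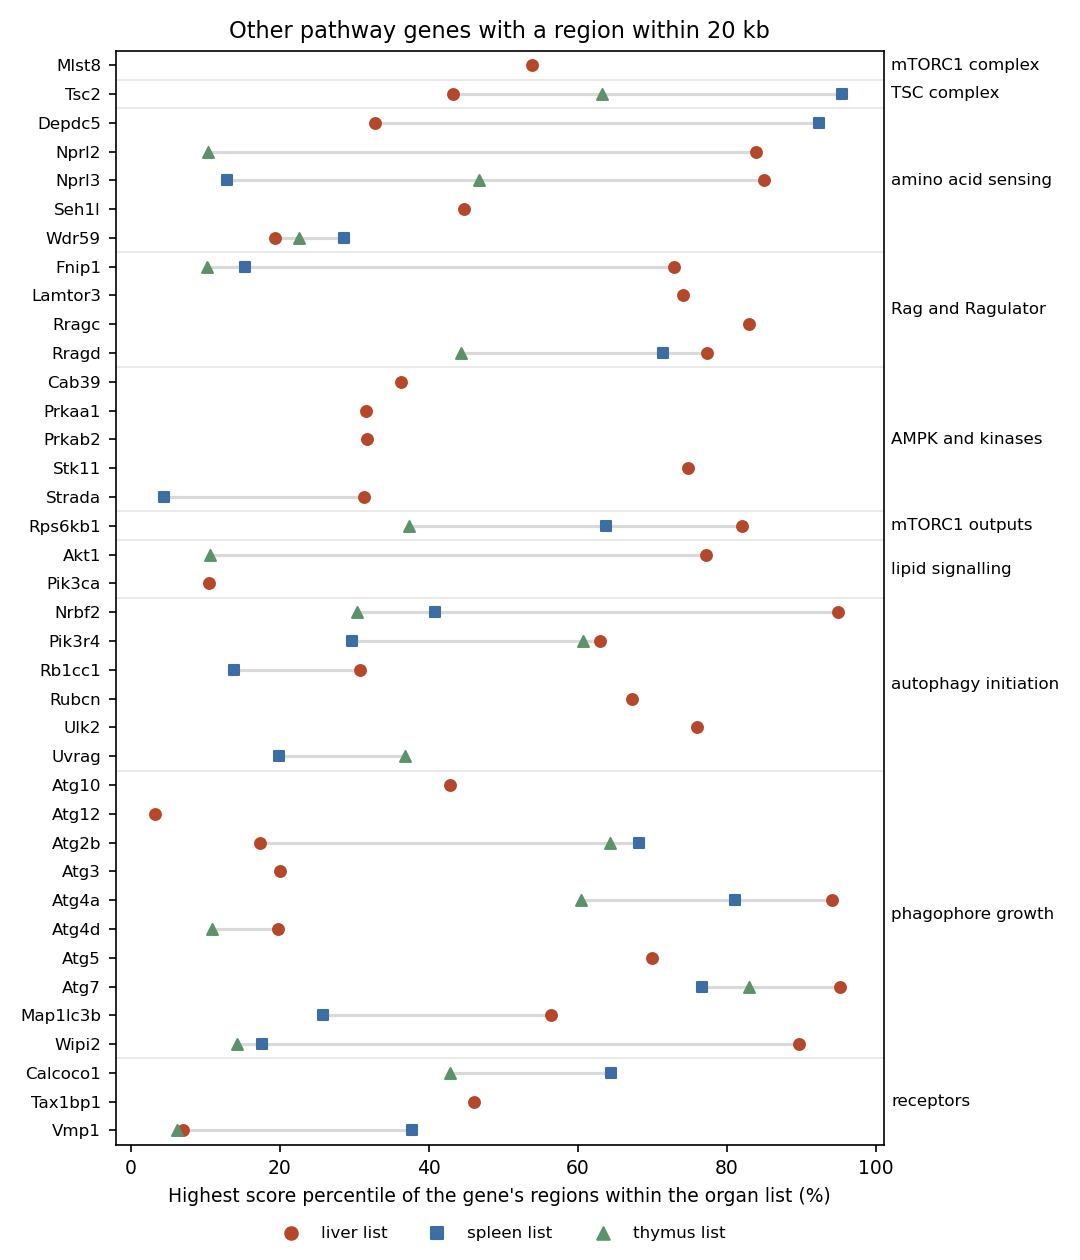
Each row is 1 of the 38 other pathway genes with a region within 20 kb, ordered by group (names at the right). Symbols give the highest score percentile of its regions in each organ list (x axis) and a missing symbol a list without one. Tsc2 reached 95.4 in spleen and Atg7 95.2 in liver, and 16 genes carry a liver symbol only.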

How the data were processed

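The submitters' processing notes name the build mm10. No source used here states the region caller, the aligner or any pooling of libraries. Each deposited list gives regions with the authors' score, which was turned into a percentile within its list with ties averaged (pandas 2.3.3). Places were compared with the RefSeq table of GRCm38.p6 (21887 coding genes), and starts and strands with its promoter windows. Regions of chromosome 18 were not placed against starts. Some genes of other chromosomes, such as Lamtor3 and Rb1cc1, had no start to place a region against. A region at such a start can therefore count as farther than 1 kb from any start. A region was in reach when it shared at least 1 base with the gene widened by 20 kb on both sides. Distances count the bases between. Distinct regions never overlapped in part, so lists share a region whole or not at all. The counting was tested on simulated data.

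The members and lists were chosen with earlier results of these data known. Named were all 7 genes with every region and, from the pathway list, each gene with a region in reach. Values were planned for the 10 highest percentiles and for genes grouped with relatives of the members (Sesn3, Ulk2, Lpin2, Lpin3, Prkab2). Of those groups, Rb1cc1, Pik3r4, Rubcn and Uvrag are named without values. Alternatives changed the window, the list length, the score limit, the placing of a region and the base of the percentile. An item of the pathway list is not reported here. No test was possible with 1 list per organ.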

Additional observations from a re-analysis of the deposited data

How the results depend on the processing

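The counts of genes in reach were 6, 5 and 4 of 7 in liver, spleen and thymus. They stayed within 1.5 times under windows of 5 and 50 kb, midpoints, lists of equal length and the upper 50% by score; inside the gene only, thymus gave 2. The 11, 9 and 6 regions became 6 in liver and 3 in thymus inside the gene only, and 4 in spleen and 3 in thymus in the upper 50%, where regions in all 3 lists numbered 2, in liver alone 6, and outside liver 1. Pathway genes in reach were 56, 33 and 29 with 50 kb, 19, 8 and 5 in the upper 50%, 11 in thymus inside the gene only, and 23 in liver with equal lengths. Shares of all coding genes were counted only at 20 kb, for full lists and lists of equal length. Counts under the other settings, of genes or of regions, have no such share beside them and are not read as a result. The Sesn1 region stayed in the liver list alone under 50% reciprocal overlap, the upper 50% and equal lengths. These settings could not place it in another list, because lists share regions whole and shortening a list adds none. Its high liver rank also kept it in the shortened liver lists, so this outcome is no check of the liver-alone pattern. With equal lengths the liver-alone Ulk1 region dropped out of the liver list and the Ulk1 start region out of the spleen list. Ranked only among regions within 1 kb of a gene end, or only among the rest, percentiles moved by -11.4 to 29.8 points. In spleen the Ddit4 promoter region then stood at 49.8, Ddit4l at 35.4 and the inner Sesn2 region at 71.3. The Ulk1 start stood at 10.8 and the upstream Sesn2 region, also near a gene end, at 89.6. Regions away from gene ends ranked lower in spleen than before, with that downstream of Ddit4 at 76.1. Ranking ties at their lowest shifted the 26 percentiles by -0.146 to -0.0258 points. No paired analysis was possible because each organ has 1 list without replicates. Depth is unknown, so a region missing from a list is not shown to be unbound.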

Other observations

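The run GCGCATGCGC, found in 2 copies in the stretch printed for the Sesn1 region, was counted over all promoter windows after it had been seen there. It occurred in 319 of 32851 windows (0.971%). Among windows that share a base with a region it occurred in 10.6% of 1040 for regions of the liver list alone, 9.30% of 258 for those of liver and spleen, and 12.1% of 247 for those of all 3 lists. None of the 8 windows of the 7 genes held it, nor did that of Ep400. The p53 decamer with up to 1 mismatch, searched as above, occurred in 47.0%, 49.2% and 60.7% of the same 3 sets. The share was 50.9% of all windows. Base composition was not matched between these sets, so its part in the shares was not tested.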
